A study of Mus musculus and Homo sapiens with 4 samples.

Results

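Matrix metalloproteinases (MMPs) are zinc-dependent enzymes that cut collagens and other proteins of the extracellular matrix. They are made as inactive pro-enzymes and are held in check by the tissue inhibitors of metalloproteinases (TIMPs), which bind the active site. The ADAMTS enzymes are related secreted proteases that cut proteoglycans such as versican and aggrecan. Fibroblasts are a main source of all 3 groups in connective tissue, where the balance between protease and inhibitor sets how fast the matrix is remodelled.

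The genes described here are 5 MMPs (Mmp2, Mmp3, Mmp9, Mmp13 and Mmp14), 3 TIMPs (Timp1, Timp2 and Timp3) and 2 ADAMTS proteases (Adamts1 and Adamts5). They were chosen with earlier results of these data known and were found by gene symbol. They account for 10 of the 23329 entries of the mouse RNA-sequencing files, each gene on 1 entry. The samples were mouse embryonic fibroblasts (MEFs) of wild-type (WT) embryos and of NEAT1 knockout (KO) embryos, both of strain C57BL/6, taken at E13.5 and grown to passage 2 to 3. Neat1 is the long non-coding RNA around which paraspeckles, a kind of nuclear body, are built. Each genotype gave 1 library from poly-A RNA, and the number of embryos behind it is not given in the sources used here. The remaining samples of the series are human VCaP cells and were not used.

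The values are RPKM, read counts scaled for the size of each transcript and the mapped reads of its library, so levels can be compared between genes of different length. The log2 ratio is log2((KO + 1)/(WT + 1)), which understates the change of genes with low values. With 1 library per genotype there is no spread between replicates, and no difference below was tested. A gene is called past the threshold where its log2 ratio is above 1 or below -1.

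Neat1 itself had 29.5 RPKM in WT and 2.01 RPKM in KO, in the direction of the labels. The libraries also differed in the sex of the embryos: Xist, which is transcribed from the inactive X chromosome, had 28.6 RPKM in WT and 0.0500 RPKM in KO, while the Y-linked gene Eif2s3y was listed at 0 in WT and had 6.30 RPKM in KO. Genotype and embryo sex cannot be told apart in any value below. The fibroblast genes Vim, Col1a1 and Fn1 had 3151, 1477 and 765 RPKM in WT and 2448, 1874 and 517 RPKM in KO. The depth is not stated in the sources used here. It was read from entries with few reads, whose RPKM times length gathered at a common unit (127 of 385 such entries in WT and 140 of 371 in KO within 2% of it). This put the totals at about 31400000 counts in WT and 29600000 counts in KO. A smaller number of entries, 69 in WT and 58 in KO, gathered at 0.5 of the unit, so a count may be a read or a fragment.

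The 3 MMPs Mmp3, Mmp13 and Mmp9 were past the threshold and higher in KO, and none of the 10 genes was past it in the other direction. Over all 23329 entries 228 had a log2 ratio above 1, which is 0.977%, and 78 had one below -1, which is 0.334%. Among the 11463 entries with at least 1 RPKM in a library, a group that holds all 10 genes, the shares were 1.99% and 0.68%. The same 3 genes were also above a log2 ratio of 2, as 0.223% of all entries were. Because the genes were chosen with earlier results of these data known, these shares are a background only and not a test. Of the 10 genes 7 were higher in KO and 3 lower, with a median log2 ratio of 0.44 against -0.06 over the 11463 entries. The plot of levels by library shows both values of each gene.

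**Figure D1:**
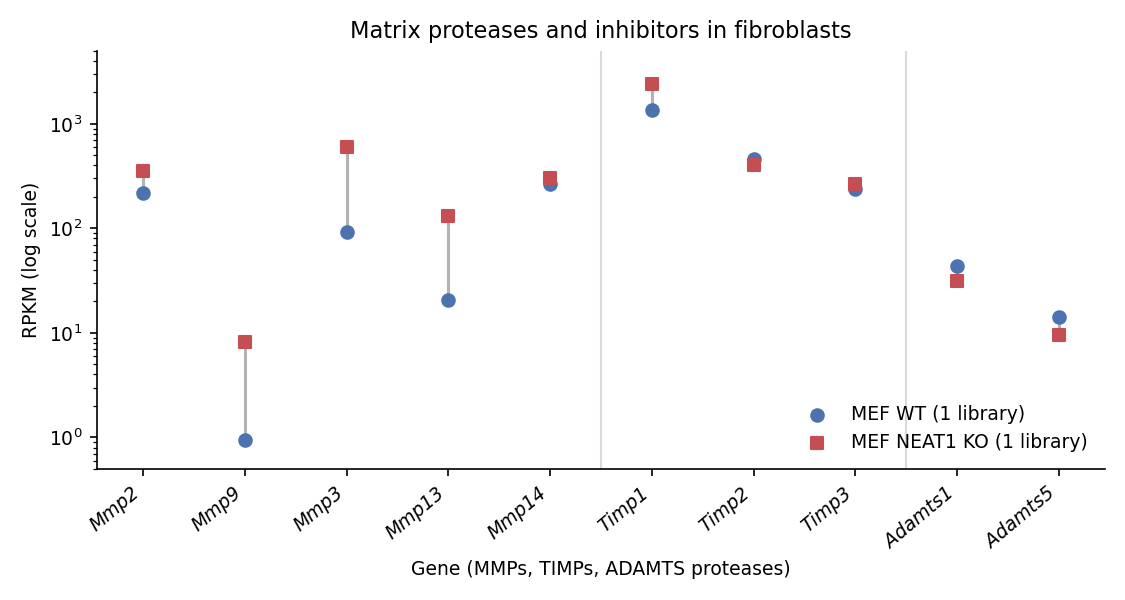
RPKM of the 10 genes on a log axis, with a blue circle for the WT library, a red square for the KO library and a grey line joining them. The lines are long for Mmp9, Mmp3 and Mmp13, whose values were 8.82, 6.56 and 6.36 times as high in KO, and short for Mmp14, Timp2 and Timp3.

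The sequences just before the start of 4 MMP genes are shown first, because Mmp3 and Mmp13 lie in a cluster of MMP genes on chromosome 9 and carry the same short motif there. The 4 genes are the entries of that cluster that reached 1 RPKM in a library. Each line gives the 100 bases before the RefSeq start (build GRCm38.p6, plus strand, 5′ to 3′) with the AP-1 motif TGANTCA in capitals. AP-1 is the dimer of Jun and Fos proteins, a known activator of MMP promoters. The windows are chr9:7445722-7445821 for Mmp3, chr9:7272414-7272513 for Mmp13, chr9:7502242-7502341 for Mmp10 and chr9:7347274-7347373 for Mmp12.
Mmp3: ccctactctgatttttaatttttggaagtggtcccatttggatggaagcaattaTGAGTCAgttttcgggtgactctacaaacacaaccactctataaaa
Mmp13: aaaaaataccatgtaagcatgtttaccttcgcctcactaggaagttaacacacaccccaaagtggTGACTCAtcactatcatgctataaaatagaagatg
Mmp10: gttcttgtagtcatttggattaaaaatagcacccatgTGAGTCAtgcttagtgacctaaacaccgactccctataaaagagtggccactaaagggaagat
Mmp12: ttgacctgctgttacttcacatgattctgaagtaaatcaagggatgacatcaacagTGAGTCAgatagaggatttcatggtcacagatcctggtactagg

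The motif began at position -46 from the start of Mmp3, -35 of Mmp13, -63 of Mmp10 and -44 of Mmp12. RefSeq promoters, from 250 bases before to 50 after the start, matched 7 of the 10 genes by symbol, and 2 of these 7, Mmp3 and Mmp13, held the motif on either strand. Those of Mmp14, Timp1, Timp2, Timp3 and Adamts1 did not hold these letters. Mmp2, Mmp9 and Adamts5 had no entry in the promoter table. The motif was present in 7.81% of all 32851 promoters listed. With 1 promoter per entry, the one with the nearest start, it was present in 7.23% of 15709 entries. In the chromosome 9 cluster 8 of 10 MMP promoters held it, also those of Mmp1a, Mmp1b, Mmp7 and Mmp20. Of the 165 entries above a log2 ratio of 1 that had a promoter in the table, 28 (17.0%) held it. Mmp3, Mmp13 and Mmp10 are among these 28. All 165 reached 1 RPKM in a library, which not all of the 15709 did. The core of the interferon-stimulated response element, searched as GAAA followed by any 2 bases and a repeat of GAAA on either strand, was found in 1 of the 7 promoters, that of Mmp13 from position -146. It was present in 3.44% of all promoters, in 3.35% of the 15709 entries with 1 promoter each and in 21.2% of the 165. Its match in Mmp13 does not overlap the AP-1 motif. These matches are of letters only and were not tested for binding of any factor.

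Mmp3 encodes stromelysin-1, which cuts proteoglycans, fibronectin and several collagens and can activate other pro-MMPs. Its value was 91.5 RPKM in WT and 600 RPKM in KO (log2 ratio 2.70). By level it stood at place 642 of all entries in WT and at place 63 in KO, and by log2 ratio it stood at place 22 of 23329. In WT it was below Mmp2 and Mmp14, and in KO it was above both. At the estimated depth the ratio of 6.56 had a 95% exact binomial interval of 6.37 to 6.76 from counting error alone.

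Mmp13, the collagenase-3 gene and the main interstitial collagenase of rodents, had 20.7 RPKM in WT and 132 RPKM in KO. The log2 ratio was 2.61, place 26 among all entries, and the ratio of 6.36 had a counting interval of 6.04 to 6.69. Mmp13 is also a gene of hypertrophic cartilage and bone, so markers of these cells were read beside it. Col2a1 had 26.7 and 23.3 RPKM in WT and KO, Col10a1 38.1 and 24.4 RPKM, and Sp7 2.85 and 1.31 RPKM. None of the 7 genes of that marker list was higher in KO, and Bglap and Matn1 were listed at 0 in both libraries. The part of cartilage or bone cells in the Mmp13 value was not tested.

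Mmp9, gelatinase B, which cuts denatured collagen and basement-membrane collagen, lies on chromosome 2 (164948251 to 164955846 of build mm10, plus strand) and was the lowest of the 10 genes in both libraries. It had 0.936 RPKM in WT and 8.25 RPKM in KO (log2 ratio 2.26), at place 39 among all entries. Its depth was the smallest of the group, equal to about 93 counts in WT and 776 counts in KO. The ratio of the values was 8.82, with an exact binomial 95% interval of 7.11 to 11.1 that covers counting error only and not the variation between cultures. With a pseudocount of 0.1 in place of 1 the log2 ratio was 3.01, since the WT value is below 1 RPKM.

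Mmp9 is also made by macrophages and neutrophils, so markers of these cells were read beside it. Of 11 macrophage genes 10 were higher in KO, beside 7033 of all 23329 entries that were higher and 10070 that were lower. The marker lists were written with earlier results of these data known. Only 6 of the 11 reached 1 RPKM in a library. C1qa was lower, with 0.935 RPKM in WT and 0.892 RPKM in KO. The summed level was 23.4 RPKM in WT and 56.2 RPKM in KO, and Lyz2 was the largest part of both sums. Lyz2, the lysozyme gene, had 13.9 and 34.7 RPKM, Cd68 2.79 and 7.26 RPKM, and Cd14 1.67 and 4.73 RPKM. Among the more restricted markers Tyrobp had 1.91 and 2.93 RPKM, Fcer1g 0.944 and 2.68 RPKM, and Fcgr1 0.0123 and 0.243 RPKM. Ptprc, which encodes the leukocyte antigen CD45, had 0.0449 and 0.0813 RPKM, Csf1r 0.521 and 0.775 RPKM, and Emr1, which encodes F4/80, 0.482 and 1.37 RPKM. Several of these values were in the range of Mmp9 itself. The neutrophil genes S100a9, Elane and Ngp were listed at 0 in both libraries, S100a8 had 0.240 and 1.23 RPKM and Camp 0.650 and 2.80 RPKM. Mpo, a further neutrophil gene, was lower in KO, with 0.0231 RPKM in WT and 0.0066 RPKM in KO. The part of such cells in the Mmp9 value was not tested. In bulk RNA a change in the number of cells of a type and a change in RNA per cell cannot be told apart.

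Mmp2 and Mmp14 were among the most abundant MMP transcripts in both libraries. Mmp14 is a membrane-bound MMP that, together with TIMP2, activates pro-MMP2 on the cell surface. Mmp2, gelatinase A, on chromosome 8 (92827328 to 92853420, plus strand), had 217 RPKM in WT and 351 RPKM in KO (log2 ratio 0.69). Mmp14, on chromosome 14 (54431604 to 54441258, plus strand), had 266 RPKM in WT and 303 RPKM in KO (log2 ratio 0.19). Neither was past the threshold, and after quantile normalization of the libraries the log2 ratio of Mmp14 was 0.02. By level they held places 195 (Mmp2) and 142 (Mmp14) in WT, and 112 and 138 in KO.

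**Figure D2:**
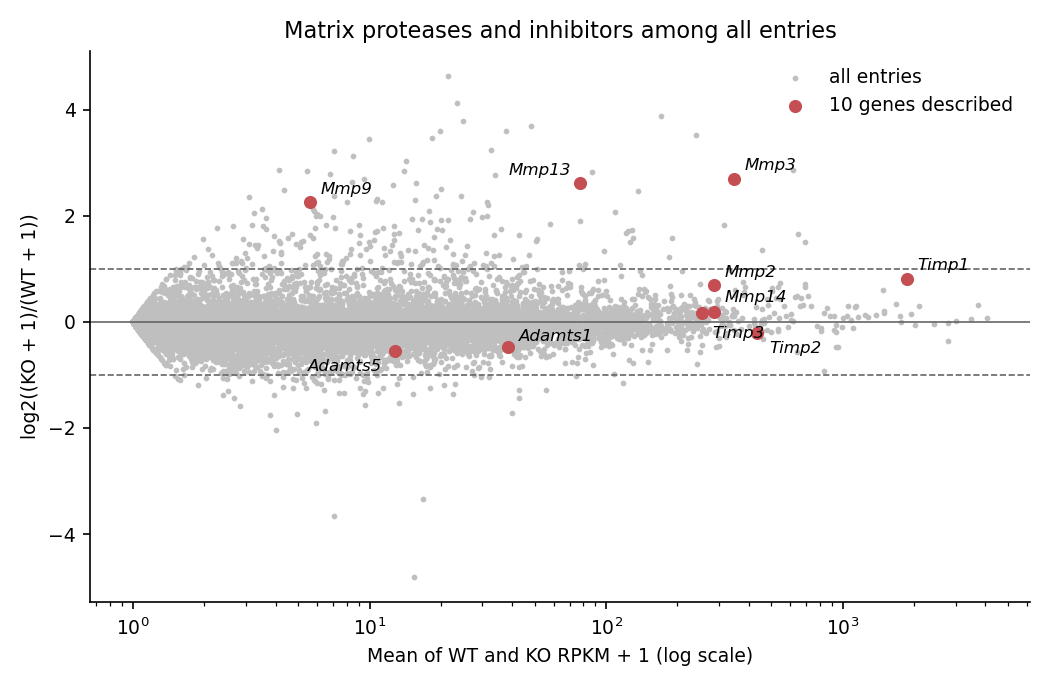
Log2 ratio of KO to WT against the mean RPKM + 1 (log axis) for all 23329 entries in grey, with the 10 genes in red and dashed lines at the threshold of 1 and -1. Mmp3, Mmp13 and Mmp9 lie above the upper line between 2.26 and 2.70, and the other 7 genes lie between the lines, from -0.54 (Adamts5) to 0.82 (Timp1).

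Timp1 was the most abundant of the 10 genes in both libraries. Timp1, an inhibitor of most secreted MMPs that is induced by growth factors and cytokines, had 1354 RPKM in WT and 2388 RPKM in KO. Its log2 ratio of 0.82 did not reach the threshold. It held place 16 of all entries by level in WT and place 8 in KO. Timp1 lies on chromosome X (20870166 to 20874737, plus strand), within the span of Syn1 on the opposite strand, and for this X-linked gene too genotype and embryo sex cannot be told apart. Syn1 had 1.63 RPKM in WT and 1.25 RPKM in KO, far below Timp1.

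Timp2 was the only TIMP of the 3 that was lower in KO, with 462 RPKM in WT and 403 RPKM in KO (log2 ratio -0.20). Timp2 lies on chromosome 11 (118301061 to 118355411, minus strand) and holds Cep295nl within its span on the same strand. No entry under the symbol Cep295nl was found, and other names of that gene were not searched. TIMP2 is the inhibitor that takes part in the activation of pro-MMP2. Timp3, which binds to the matrix and also inhibits ADAMTS4, ADAMTS5 and ADAM17, had 238 RPKM in WT and 268 RPKM in KO (log2 ratio 0.17). It lies on chromosome 10 (86300412 to 86349505, plus strand) within the span of Syn3 on the opposite strand, and Syn3 had 0.0782 and 0.0659 RPKM. Timp4, the remaining gene of the family, had 0.395 and 0.177 RPKM. After quantile normalization the log2 ratios of Timp1, Timp2 and Timp3 were 0.59, -0.46 and 0.08. Whether Timp2 and Timp3 differ between the genotypes cannot be judged without replicates.

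Adamts1 and Adamts5, both of which cut versican and aggrecan, were lower in KO. Adamts1 had 43.8 RPKM in WT and 31.3 RPKM in KO (log2 ratio -0.47). Adamts5 had 14.2 RPKM in WT and 9.46 RPKM in KO (log2 ratio -0.54). Neither was past the threshold. They are neighbours on chromosome 16 (Adamts1 from 85793828 to 85803115 and Adamts5 from 85858157 to 85901125, both on the minus strand), with 55.04 kb between them. Their log2 ratios were at places 22324 and 22607 of 23329, so that most entries had a higher ratio. Only 11463 of these entries reached 1 RPKM in a library, and the pseudocount of 1 keeps the ratios of the rest small. A low place is therefore not a sign of a large change.

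Summed over the group, the 5 MMPs had 597 RPKM in WT and 1395 RPKM in KO, a ratio of 2.34. Mmp3 made up 15.3% of this sum in WT and 43.1% in KO, whereas Mmp14 made up 44.6% and 21.8%. Without Mmp3 the ratio was 1.57. The 3 TIMPs summed to 2055 RPKM in WT and 3058 RPKM in KO, a ratio of 1.49, and Timp1 made up 65.9% and 78.1% of these sums. The TIMP sum was 3.44 times the MMP sum in WT and 2.19 times in KO. These are amounts of transcript per length and say nothing of active enzyme.

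The order of the levels also differed. In WT it ran from Timp1 through Timp2, Mmp14, Timp3, Mmp2, Mmp3, Adamts1, Mmp13 and Adamts5 to Mmp9. In KO Mmp3 was next after Timp1, followed by Timp2, Mmp2, Mmp14, Timp3, Mmp13, Adamts1, Adamts5 and Mmp9. Neighbours in these orders have no spread against which to be compared.

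The MMP genes of chromosome 9 lie side by side over 427 kb and hold 10 entries of the files. In mm10 coordinates Mmp13 (7272514 to 7283333) is at the low-coordinate end and Mmp3 (7445822 to 7455974) lies inside the cluster, both on the plus strand. In the cluster 4 entries reached 1 RPKM in a library, Mmp12 only in KO, and all 4 were higher in KO. Above a log2 ratio of 1 were 3 of them, beside 1.99% of all entries with at least 1 RPKM in a library. The third, Mmp10, encodes stromelysin-2 and had 2.59 RPKM in WT and 20.5 RPKM in KO (log2 ratio 2.58), at place 27. Mmp12, the macrophage elastase gene, had 0.363 and 1.34 RPKM, a log2 ratio of 0.78. Mmp3 and Mmp10 are close paralogs, and how reads that fit both were counted is not given in the sources used here. Among the low entries Mmp8 had 0.0258 and 0.233 RPKM and Mmp1b 0.0318 and 0.209 RPKM, Mmp27 was lower in KO with 0.0764 and 0.0203 RPKM, and Mmp7 and Mmp20 were listed at 0 in both. The neighbours above 1 RPKM outside the cluster were lower in KO: Dcun1d5 had 20.3 RPKM in WT and 12.5 RPKM in KO, Tmem123 had 29.6 and 26.9 RPKM, and Birc2 4.00 and 3.18 RPKM. Outside the cluster 1 of 13 MMP entries, Mmp9 on chromosome 2, was above a log2 ratio of 1.

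**Figure D3:**
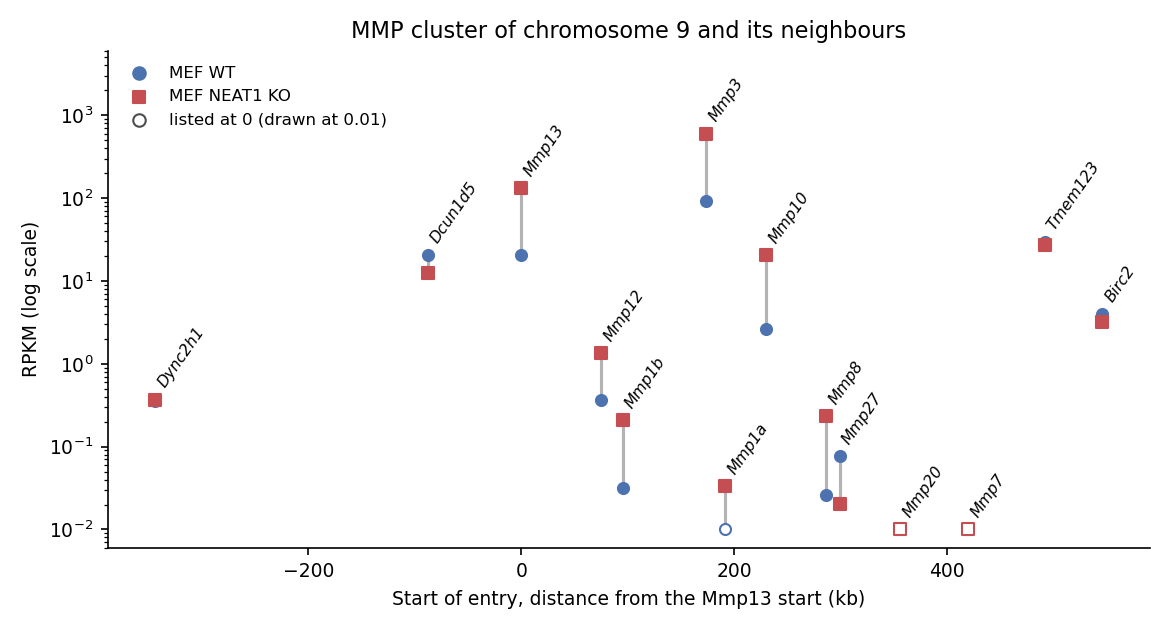
RPKM (log axis) of the 10 MMP entries of the chromosome 9 cluster and of 2 neighbours on either side, placed by the distance of their start from that of Mmp13 in kb, with blue circles for WT and red squares for KO. Values listed at 0 are open symbols drawn at 0.01, where the WT and KO symbols of Mmp7 and Mmp20 coincide; Mmp13, Mmp3 and Mmp10 have the widest gaps among the entries above 1 RPKM.

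The wider families were read to see whether the 3 MMPs stood with their relatives. Of 73 further MMP, ADAMTS, ADAMTS-like, TIMP and ADAM entries, 29 reached 1 RPKM in a library, and of these only Mmp10 was past the threshold. Their median log2 ratio was 0.11. Mmp23 had 32.0 and 35.2 RPKM in WT and KO, and Mmp11 33.3 and 28.5 RPKM. Among the ADAMTS genes Adamts2, the procollagen N-proteinase, had 11.6 and 17.8 RPKM, Adamts10 10.5 and 9.96 RPKM, and Adamts12 8.08 and 9.05 RPKM. Adamts9, a versican-cutting relative of Adamts1, came nearest to the threshold with 0.884 and 2.65 RPKM, a log2 ratio of 0.95. Apart from Adamts1 and Adamts5, 10 of the 17 further ADAMTS entries were higher and 5 lower in KO. Over all 23329 entries 7033 were higher and 10070 lower. Only 8 of the 17 reached 1 RPKM in a library, so the direction of the rest was read from low values. In the membrane-bound ADAM family the most abundant genes were Adam19 with 49.5 and 46.1 RPKM, Adam15 with 48.6 and 44.9 RPKM, and Adam9 with 46.1 and 41.5 RPKM. Adam12 had 14.5 and 26.4 RPKM, and Adam10 20.3 and 14.2 RPKM. Of the 5 ADAMTS-like entries Adamtsl5 had 21.0 and 20.2 RPKM, Adamtsl4 9.36 and 16.6 RPKM, Adamtsl3 5.07 and 4.36 RPKM, Adamtsl1 2.70 and 2.21 RPKM, and Adamtsl2 0.0631 and 0.102 RPKM.

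**Figure D4:**
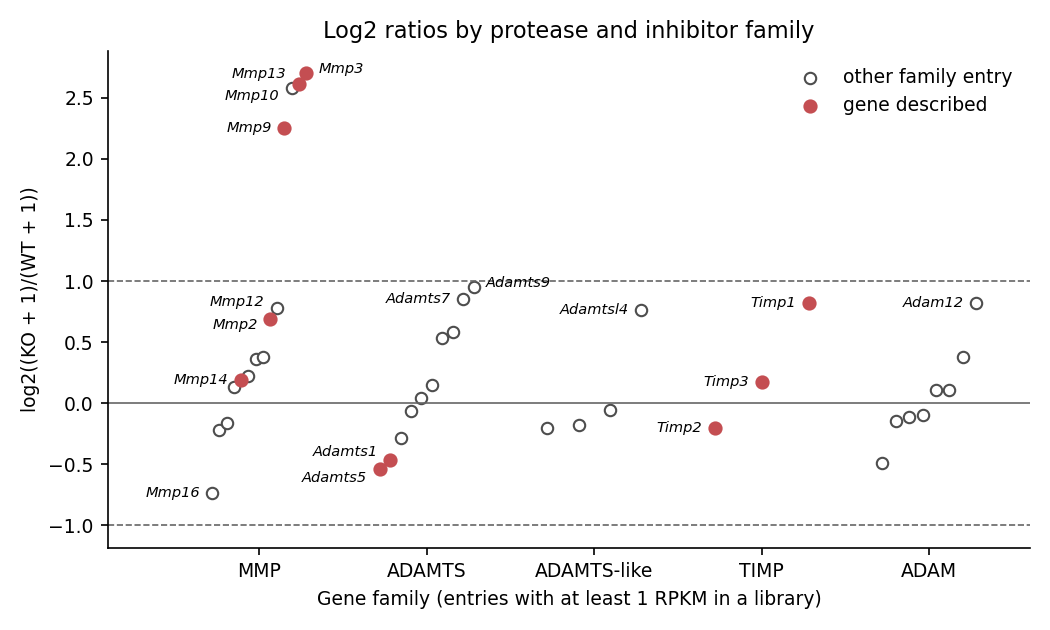
Log2 ratios of the entries with at least 1 RPKM in a library, by gene family, with the genes described in red, the other entries of each family as open circles and dashed lines at 1 and -1. Mmp3, Mmp13, Mmp10 and Mmp9 form a group above 2, and every other entry lies between the dashed lines.

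Genes that act on the same enzymes or share their substrates were read from lists, beside the 0.977% of all entries that were above a log2 ratio of 1. These lists too were written with earlier results of these data known. Of 10 genes for pro-enzyme activation and clearance, 1 was past the threshold: Pcsk5, a proprotein convertase, with 0.640 RPKM in WT and 3.56 RPKM in KO (log2 ratio 1.47). Furin, the convertase that activates MMP14, had 75.2 and 82.6 RPKM. Bsg, which encodes the MMP inducer basigin, had 505 and 626 RPKM, and the clearance receptor gene Lrp1 had 158 and 168 RPKM. The urokinase receptor gene Plaur had 112 and 83.2 RPKM, and Plg, which encodes plasminogen, was listed at 0 in both. None of 14 other inhibitors was past the threshold, among them Cst3, the cystatin C gene, with 607 and 570 RPKM, Serpinf1 with 277 and 421 RPKM, and Reck, a membrane-anchored MMP inhibitor, with 5.87 and 7.18 RPKM. None of 12 other matrix proteases was past it either, and the most abundant, the lysosomal protease gene Ctsd, had 951 and 913 RPKM, followed by Ctsl with 189 and 218 RPKM and Ctsb with 146 and 183 RPKM. Of 7 ADAMTS substrate and cofactor genes none was past the threshold, 4 were higher in KO and 2 lower. Nid1, which encodes nidogen-1, had 99.8 and 61.5 RPKM (log2 ratio -0.69), Nid2 26.7 and 29.4 RPKM, Fbln1, the fibulin-1 gene, 17.6 and 31.0 RPKM, and Vcan, the versican gene, 15.3 and 24.9 RPKM (log2 ratio 0.67).

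Of a list of 9 genes for cytokines that can change MMP expression and for cytokine receptors, 2 were past the threshold. All 9 had a higher value in KO, beside 7033 of the 23329 entries that were higher and 10070 that were lower. Of the 9 genes 3 did not reach 1 RPKM, and Il1a reached it only in KO. This list and that of the factors below were written with earlier results of these data known. Their counts are not independent of those results. Il6 had 2.09 RPKM in WT and 24.4 RPKM in KO (log2 ratio 3.04). Il1a had 0.0909 and 1.34 RPKM, a log2 ratio of 1.10, and the receptor gene Il1r1 had 4.91 and 10.8 RPKM. Tnfrsf1a had 90.3 and 96.9 RPKM, Tgfb1 63.4 and 92.7 RPKM, and Osmr 29.0 and 53.1 RPKM. The 3 low genes were Il1b, listed at 0 in WT with 0.101 RPKM in KO, Tnf with 0.115 and 0.229 RPKM, and Osm with 0.0155 and 0.0177 RPKM. Of 12 genes for AP-1, NF-κB, ETS and RUNX factors 1 was past the threshold and 10 had a higher value in KO, and the median log2 ratio was 0.38. The gene past the threshold was Nfkb1, with 14.2 and 32.8 RPKM and a log2 ratio of 1.15. The AP-1 genes Junb, Jun and Fosl2 were not, with 80.5 and 148, 69.0 and 101, and 77.1 and 98.6 RPKM. Whether any of these genes bears on Mmp3, Mmp9 or Mmp13 was not tested.

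**Figure D5:**
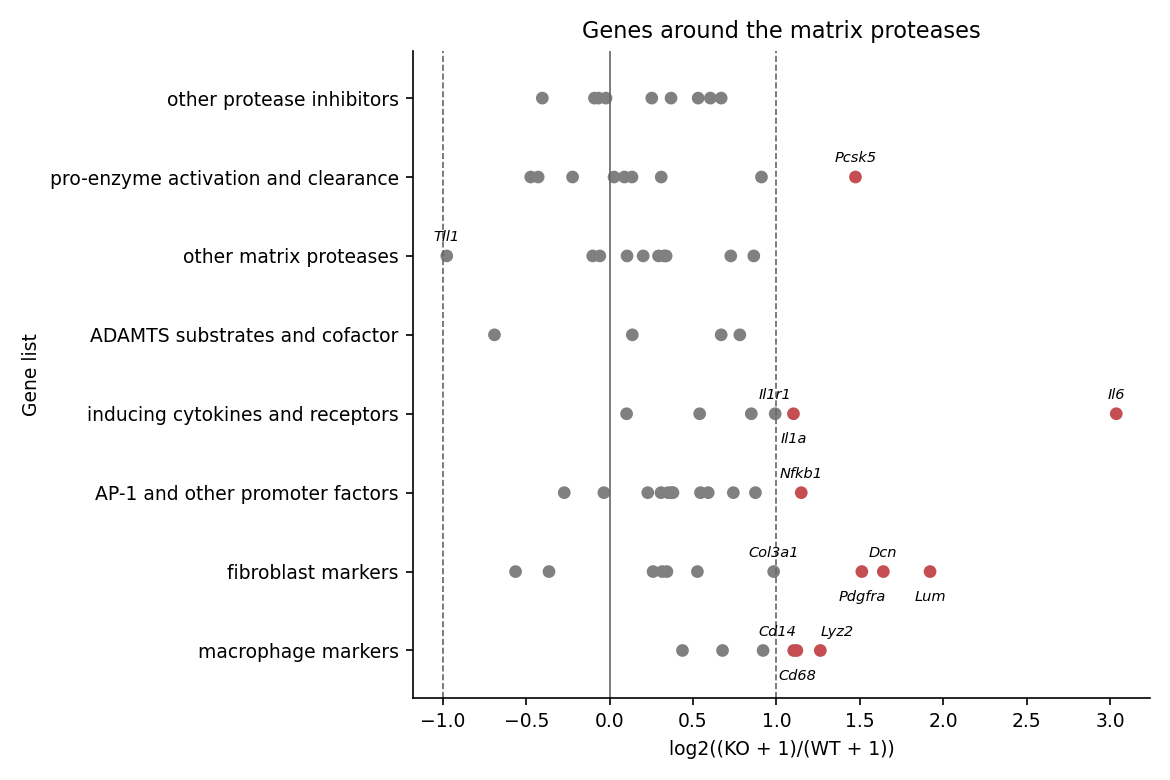
Log2 ratios of the genes with at least 1 RPKM in a library in 6 lists of genes around the matrix proteases and in the fibroblast and macrophage marker lists, with genes past 1 in red and dashed lines at 1 and -1. Il6 stands farthest out at 3.04; no gene of these lists lies below -1.

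Markers of other cell types that a fibroblast culture could hold ranged widely. The endothelial genes Pecam1 and Cdh5 had at most 0.0336 and 0.00847 RPKM in either library, and Kdr 1.01 and 0.397 RPKM in WT and KO. Of the 5 epithelial genes Krt19 had 24.6 and 25.9 RPKM, Krt18 1.02 and 0.660 RPKM, and Krt8, Epcam and Cdh1 at most 0.0352 RPKM. The muscle gene Des had 6.28 RPKM in WT and 3.20 RPKM in KO. Among the 10 fibroblast markers 3 were past the threshold and higher in KO: Pdgfra with 4.18 and 13.8 RPKM, Lum with 7.98 and 33.0 RPKM, and Dcn with 19.8 and 64.0 RPKM. Their part in the MMP values was not tested.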

How the data were processed

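Poly-A RNA of 1 WT and 1 NEAT1 KO MEF library was used. The authors deposited RPKM values for 23329 RefSeq-based entries. The submitters' processing notes name CASAVA 1.8 and the builds mm10 and hg18. The aligner, the counting program, the handling of shared reads and any scaling between libraries are not given in the sources used here. The strand was not stated to be kept for the MEF libraries. File coordinates fit mm10 (both ends within 1000 bases of GENCODE M21 for 90.7% of 18441 entries), with starts counted from 0, and are printed 1-based.

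Log2 ratios were taken with a pseudocount of 1 on every entry. With 1 library per group no test was made. Depth was estimated from RPKM times GENCODE exon length at low values. The members and gene lists were chosen with earlier results of these data known. Named were all members, family and list genes past the threshold with at least 1 RPKM, and by mean value the top 5 of each family and top 3 of each list around the proteases, of which 1 is not reported here. Interferon-response genes were listed because they were known to be higher in KO and are not counted. Mmp10's neighbours, Mmp11, Adamts9, Furin, Plg, Reck, Vcan, Il1b, Tnf, Il1r1 and several markers were named after their values were seen. Promoter sequences are from RefSeq. Results were recomputed with 0.1 as the pseudocount, with entries under 1 RPKM left out, with centring on the median (-0.06 over 10888 entries with at least 1 RPKM in both), quantile normalization, 1 entry per symbol and a threshold of 2. Counts within 1.5 times the original, and ratios moved by less than 1.5-fold, were taken as unchanged. The scripts were tested on simulated data. Python 3.11.15, numpy 2.4.6, pandas 2.3.3, scipy 1.17.1 and matplotlib 3.10.9 were used.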

Additional observations from a re-analysis of the deposited data

How the results depend on the processing

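The 3 genes past the threshold, Mmp3, Mmp13 and Mmp9, were the only members past it under the other pseudocount, the minimum of 1 RPKM, the centring, the quantile normalization, 1 entry per symbol and the threshold of 2, and no member changed direction under any of them. Of 50 member ratios recomputed, 49 moved by less than 1.5-fold, and that of Mmp9 was 3.01 with a pseudocount of 0.1. The minimum of 1 RPKM and 1 entry per symbol could not change any member ratio. All 10 genes passed that minimum and each had 1 entry. Centring moved every log2 ratio by the same 0.06. Only quantile normalization and the pseudocount of 0.1 could therefore move a ratio by 1.5-fold. With that pseudocount 500 entries were above 1 and 540 below -1, 6 further family entries were higher and 1 lower, and 7 genes of the 6 lists around the proteases were higher and 1 lower. Centring and quantile normalization each put 2 further family entries above 1. At a threshold of 2, 52 entries were above and 4 below. No paired analysis was possible because each group holds 1 library, and variation between cultures could not be estimated. At the estimated depth counting error limits the low entries, such as Mmp9 in WT, and not the abundant ones.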
